A study of Mus musculus with 15 samples.

Results

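The genes described here are 34 enzymes and transporters of glycolysis, gluconeogenesis and fructose metabolism, a list chosen by symbol from the 43629 genes of the count table, each matching a single gene identifier. Glycolysis breaks glucose down to pyruvate and lactate, gluconeogenesis runs the pathway backwards through a small set of bypass enzymes, and ketohexokinase feeds dietary fructose into the triose stage. Many steps are shared by isozymes, related enzymes encoded by separate genes that differ in regulation and in the tissues that use them. In the small intestine, absorptive enterocytes are known for fructose handling and for gluconeogenic enzymes also used by liver and kidney. Proliferating crypt cells are known for glycolysis.

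RNA was sequenced from mouse intestinal organoids, epithelial cultures grown in Matrigel, all of C57B6/129 strain. The aim was to compare cells with a Ptprk-Rspo3 rearrangement with Apc-deleted and unmutated cells. The WT group held 5 libraries in ENR medium, which contains EGF, Noggin and RSPO1. Of these, WT 1, 2, 5 and 6 carried APC flox/flox alleles that had not been recombined and WT naive was labelled Dox naive, a culture from the inducible line that had not been given doxycycline. The Apc group held 4 libraries of Apc delta/delta organoids, numbered 1, 2, 5 and 6 like the flox cultures, in EN medium without RSPO1. The P-Rspo3 group held 4 libraries, labelled 15d, 4d, M and F, of Ptprk-Rspo3 organoids in EN medium, from transgenic mice that carry guides and a Cas9 transgene switched on by doxycycline, as a bulk population and not a clone. Apc and P-Rspo3 therefore each differed from WT in medium as well as genotype, and these cannot be told apart. P-Rspo3 also differed in mouse line from WT 1, 2, 5 and 6, and Apc from WT naive. That difference adds to medium and genotype in P-Rspo3 against WT, where WT naive alone was of the inducible line. Apc and P-Rspo3 shared a medium but came from different mouse lines, which cannot be told apart from genotype either. Nothing in the labels says which libraries came from separate animals or cultures, so p-values measure the spread between these libraries, which may be technical. A further 2 libraries entered no main comparison, NAIVE_F because its title and genotype label conflict and LIPO because its title names no group. Some alternatives placed them in groups.

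The 13 grouped libraries held 28902729 to 35528495 counts, and no pair of libraries agreed within sampling noise. Rspo3 counts were 539 to 1079 in P-Rspo3, 0 to 1 in WT and 7 to 57 in Apc. Ptprk, the partner gene of the rearrangement, had 1517 to 2012 counts in P-Rspo3 15d, M and F. P-Rspo3 4d, the library with 539 counts of Rspo3, had 3107 of Ptprk, within the WT range of 2958 to 4996. Apc counts were 9265 to 10953 in Apc and 4046 to 6810 in WT, but this gene-wide count includes exons outside the deleted part and does not check the deletion. Summed FPKM (fragments scaled to transcript length and library size) of 10 enterocyte markers was 3394 to 9660 in WT, 139 to 170.3 in Apc and 2442 to 5472 in P-Rspo3, and 5 proliferation markers summed to 269 to 330.5, 497 to 551 and 240.3 to 328 in the same order. Goblet cell, Paneth cell and enteroendocrine cell marker sums were also lower in every Apc library than in any other, at 203 to 516, 647 to 1550 and 15.4 to 30.7 FPKM against 1362 to 3096, 3564 to 9673 and 75.0 to 136 in WT and P-Rspo3. The Paneth cell markers were mixed, with 4 of 5 called lower and 1 called higher in both Apc comparisons. Of 6 enteroendocrine markers 4 were called lower in both and the rest were not called. Fibroblast markers were near 0 throughout, at no more than 0.311 FPKM in sum with 3 of 5 genes at 3 counts or fewer in every group. Stem cell markers did not all move the same way: Lgr5, Ascl2, Smoc2 and Axin2 were called higher and Olfm4 lower in both Apc comparisons (-9.78 against WT). Their sums were 408 to 538 FPKM in Apc, 584 to 1327 in WT and 518 to 911 in P-Rspo3. Of 3 tuft cell markers tested 2, Dclk1 and Trpm5, were called lower in both comparisons, and the sums of 2.79 to 3.79 FPKM in Apc overlapped P-Rspo3. Immune cell markers summed to 3.68 to 10.2 FPKM in Apc against 0.801 to 2.79 elsewhere, with Cd68 called higher and Csf1r lower of 2 genes tested. Endothelial cell markers summed to 2.35 to 2.68 FPKM against 0.276 to 0.817, with Cdh5 and Tek called higher and Pecam1 lower against WT and P-Rspo3 alike. These marker levels move with the Apc group beside every result below, and their part in the results was not tested. In bulk RNA, fewer cells of a type and less RNA per cell cannot be told apart.

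Pyruvate kinase and hexokinase both differed in isozyme make-up between Apc and the other groups, so the promoters of both gene pairs are shown. Each runs from 250 bases before to 50 bases after the transcript start as RefSeq gives it (GRCm38.p6, RNA strand, 5′ to 3′), and capitals mark exact matches, on either strand, to 5 short motifs. The E-box is CACGTG, a site of many basic helix-loop-helix factors. The core bound by hypoxia-inducible factors is ACGTG, which also lies inside every E-box as spelled here. The site of TCF/LEF factors, the nuclear end of Wnt signalling, is CTTTGAT in this search. A carbohydrate response element was taken as a pair of imperfect E-boxes, the first being CACGNG and the other, after a gap of 5 bases, CNCGTG in the same direction. HNF4, a factor of liver and gut epithelium, was searched as CAAAGNCCA throughout. Pklr is shown at the downstream of its starts (chr3:89136373-89136672, plus strand), Pkm at the downstream of its starts (chr9:59656977-59657276, plus strand), Hkdc1 at chr10:62422408-62422707 (minus strand) and Hk2 at chr6:82774405-82774704 (minus strand).
Pklr: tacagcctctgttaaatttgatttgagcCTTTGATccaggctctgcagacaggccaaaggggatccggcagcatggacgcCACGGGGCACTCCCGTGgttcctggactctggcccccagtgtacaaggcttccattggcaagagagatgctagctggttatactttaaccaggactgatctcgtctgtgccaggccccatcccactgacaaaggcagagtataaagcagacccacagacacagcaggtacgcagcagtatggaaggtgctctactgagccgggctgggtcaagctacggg
Pkm: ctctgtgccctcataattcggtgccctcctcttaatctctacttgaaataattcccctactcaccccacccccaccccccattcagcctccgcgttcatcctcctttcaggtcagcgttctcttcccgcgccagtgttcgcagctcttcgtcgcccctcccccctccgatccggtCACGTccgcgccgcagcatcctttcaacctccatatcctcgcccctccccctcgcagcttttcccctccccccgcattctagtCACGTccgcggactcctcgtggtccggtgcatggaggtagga
Hkdc1: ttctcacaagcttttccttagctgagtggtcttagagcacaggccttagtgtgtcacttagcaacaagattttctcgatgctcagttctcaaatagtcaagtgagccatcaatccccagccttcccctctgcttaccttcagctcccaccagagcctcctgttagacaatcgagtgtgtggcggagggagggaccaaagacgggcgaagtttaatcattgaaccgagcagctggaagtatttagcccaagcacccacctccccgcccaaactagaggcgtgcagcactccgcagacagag
Hk2: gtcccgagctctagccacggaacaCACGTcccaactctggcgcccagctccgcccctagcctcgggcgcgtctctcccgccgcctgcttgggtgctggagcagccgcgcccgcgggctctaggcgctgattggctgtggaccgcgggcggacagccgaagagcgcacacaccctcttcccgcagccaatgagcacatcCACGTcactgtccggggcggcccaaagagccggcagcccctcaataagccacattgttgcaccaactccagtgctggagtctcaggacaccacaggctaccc
The Pklr window held a carbohydrate response element letter match, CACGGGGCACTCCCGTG, 170 to 154 bases before the start, and a TCF/LEF match 222 to 216 bases before it. Of 32851 RefSeq promoters of this length, 15 (0.0457%) held that element, and among the 52 promoters of the 34 members only this window of Pklr did. Hk2 held ACGTG on the opposite strand 226 to 222 and 52 to 48 bases before its start, Pkm 75 to 71 bases before and within its transcribed part, and Hkdc1 held none of the 5 motifs. The windows at the upstream starts of Pkm and Pklr, not shown, also held none of them. ACGTG was in 21 of the 52 member promoters (40.4%, against 19.6% of all promoters), CACGTG in 7 (13.5% against 7.15%) and CTTTGAT in 3 (5.77% against 3.73%). The HNF4 letters were in no member promoter, against 1.98% of all. These matches describe letters in a window and not sites in use, and several promoters belong to the same gene.

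In Apc-deleted organoids the fructose enzymes Khk and Tkfc and the gluconeogenic enzymes Fbp1, Fbp2, Pck1, Pck2 and G6pc were all lower than in WT, as were Hkdc1, Pklr, Pfkp, Pfkfb2 and Pfkfb4 among the glycolytic enzymes. The trunk enzymes Aldoa, Pgk1 and Pgam1 did not pass the test. Other members passed it by less than 2-fold: Gpi1, Pfkm, Tpi1, Gapdh, Eno1 and Ldha lower, and Hk2, Pfkfb3, Eno3 and Pkm higher. The passes of Pfkfb3, Tpi1 and Eno1 were lost under some alternatives. Of the 33 members tested against WT, 12 were called lower and 2 higher at adjusted p < 0.05 with a change above 2-fold, that is 1 on the log2 scale, against 14.1% lower and 12.2% higher of all 16749 genes tested. At adjusted p alone 18 were lower and 6 higher, against 29.0% and 30.0% of all genes. The median log2 fold change of the members was -0.43, and also -0.43 with genes at or under 3 counts set at their bound, against 0.00058 over all genes. FPKM of the groups did not overlap in 23 of 33 members, against 54.5% of all genes. Compared with P-Rspo3 in the same medium, 12 of 33 members were called lower and 3 higher, against 13.3% and 13.4% of 16456 genes, and 16 lower and 8 higher at adjusted p alone, against 27.7% and 28.7%. FPKM did not overlap in 19, against 55.6%, and the members' median log2 fold change was -0.03, against 0.00066 over all genes. The 12 genes called lower were the same in both comparisons, which share the Apc libraries. Hk3 alone was not tested in any comparison, with at most 3 counts in every library.

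**Figure D1:**
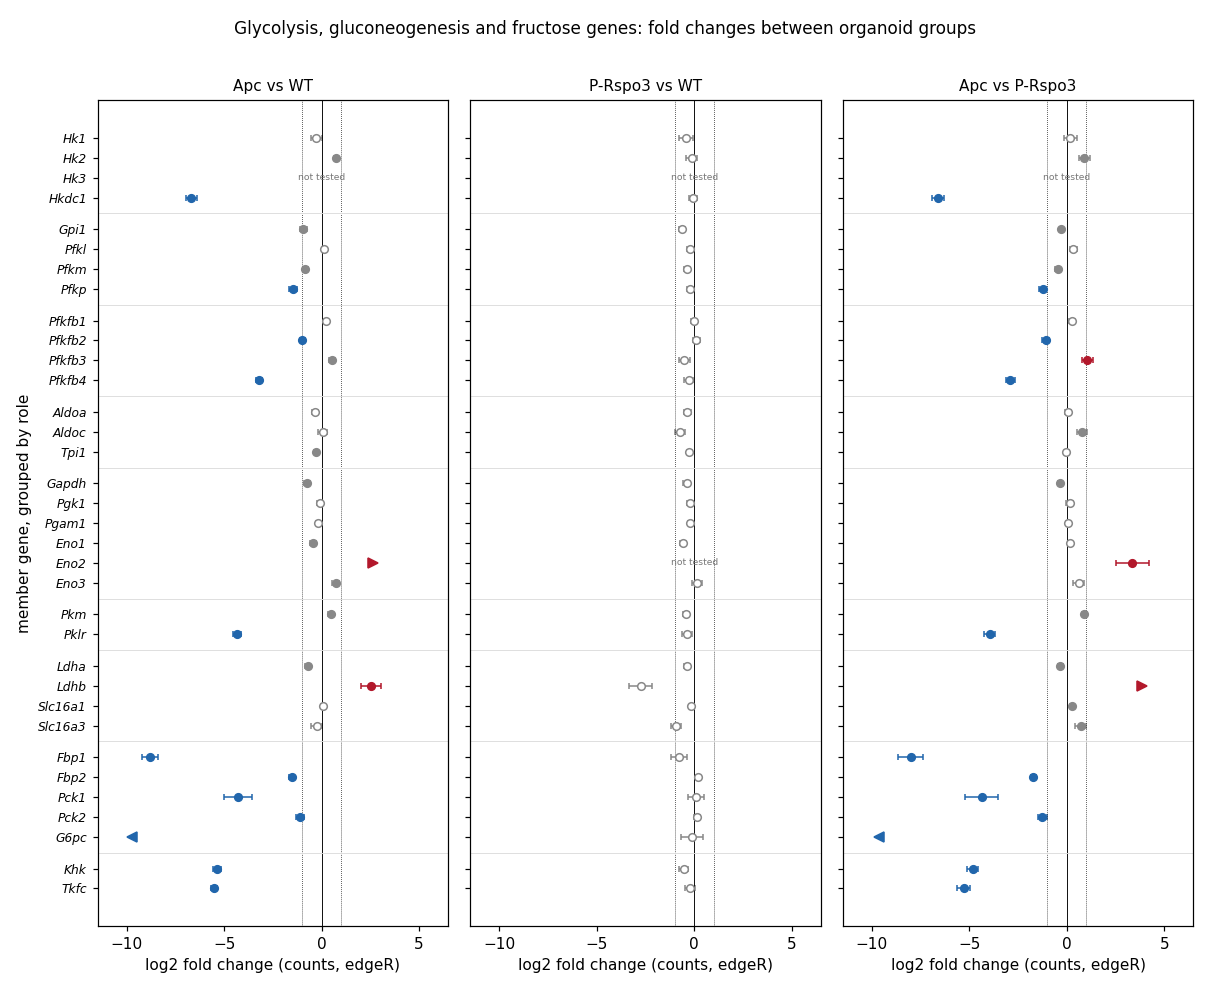
Log2 fold change of each member gene in the 3 comparisons, with bars of 1 SE; filled symbols passed adjusted p < 0.05, red and blue symbols were called higher and lower, dotted lines mark 1 and -1, and triangles are bounds for genes at 3 counts or fewer in every library of a group. In the Apc comparisons 12 members lie below -1 and filled blue, from Pfkfb2 at -1.01 to G6pc, and in P-Rspo3 against WT every symbol is open.

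Library values in the sentences that follow run in the order WT 1, 2, 5, 6 and naive, Apc 1, 2, 5 and 6, and P-Rspo3 15d, 4d, M and F. FPKM is per transcript length, so genes can be set beside each other, while fold changes were fitted to counts with TMM scaling between libraries. The FPKM were used as deposited, without that scaling, so folds in FPKM and in scaled counts can differ. In Apc against WT the median of all genes was 0.17 on log2(FPKM + 1), against 0.00058 in the scaled counts.

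Fructose enters metabolism through Khk, ketohexokinase, and Tkfc, the triokinase that phosphorylates the glyceraldehyde made from it. Khk FPKM was 545, 407, 577, 415 and 471 in WT, 18.1, 23, 20.3 and 17.4 in Apc and 236, 298, 306 and 481 in P-Rspo3. Tkfc FPKM was 836, 649, 926, 707 and 716 in WT, 19.3, 22, 21.3 and 19.3 in Apc and 472, 575, 517 and 1107 in P-Rspo3. Every Apc library lay below every other library for both genes, by a wide gap. Khk fell in Apc against WT (mean FPKM 19.7 ± 2.53, SD, n = 4, against 483 ± 76.1, n = 5, edgeR quasi-likelihood log2 fold change -5.37, SE 0.18, adjusted p = 7.57e-09), as did Tkfc (log2 fold change -5.50, SE 0.16, adjusted p = 2.87e-09). Against P-Rspo3 the log2 fold changes were -4.82 and -5.28 (adjusted p = 1.34e-06 and 2.15e-06). P-Rspo3 overlapped WT in both genes. Tkfc in P-Rspo3 F was higher than in any other library of its group.

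The 5 gluconeogenic enzymes were called lower in Apc in both comparisons by edgeR, with Pck1 in both and Pck2 against WT short of the fold threshold by limma on log2(FPKM + 1). Fbp1 FPKM was 135, 114, 252, 113 and 143 in WT, 0.153, 0.339, 0.60 and 0.562 in Apc and 69.8, 39, 67.4 and 172 in P-Rspo3. G6pc FPKM was 17.8, 11.7, 36.7, 23.5 and 21.1 in WT, 0, 0, 0 and 0.0101 in Apc and 11.4, 13.5, 6.8 and 49.2 in P-Rspo3. Fbp1, the fructose bisphosphatase of liver and intestine, and G6pc, the glucose-6-phosphatase that releases free glucose, were below 1 FPKM in every Apc library and at 6.80 FPKM or more in all 9 others. Fbp1 fell with a log2 fold change -8.82, SE 0.42, adjusted p = 5.67e-08 against WT, and -8.01 on the log2 scale against P-Rspo3 (adjusted p = 7.41e-06, and -7.39 without P-Rspo3 F). G6pc had 0 to 2 counts in the Apc libraries, so its fold is a bound: at least 860-fold lower than WT (adjusted p = 1.16e-07) and at least 789-fold lower than P-Rspo3 (adjusted p = 2.96e-05), computed against a floor of 3 counts per library.

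Fbp2 FPKM was 182, 141, 151, 161 and 171 in WT, 84.6, 61.1, 68.9 and 56.9 in Apc and 164, 196, 185 and 201 in P-Rspo3. Fbp2, the muscle-type paralog, was lower in every Apc library than in any other (log2 fold change -1.53, SE 0.12, adjusted p = 2.10e-06; -1.72 against P-Rspo3, adjusted p = 1.09e-05). The Fbp1 share of the summed Fbp1 and Fbp2 FPKM was 47.3% ± 8.66 in WT, 0.643% ± 0.357 in Apc and 29.8% ± 12.2 in P-Rspo3 (SD), with library ranges of 41.2% to 62.5%, 0.18% to 0.978% and 16.6% to 46%. The Apc range stood apart from both others, and the WT and P-Rspo3 ranges overlapped. The summed FPKM of the pair was 313 ± 57 in WT, 68.3 ± 12 in Apc and 273 ± 66.8 in P-Rspo3.

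Pck1 FPKM was 0.996, 1.47, 1.08, 0.523 and 1.2 in WT, 0, 0.173, 0.0479 and 0.033 in Apc and 0.765, 1.04, 0.59 and 2.09 in P-Rspo3. Pck2 FPKM was 46.8, 50.8, 35.4, 44.1 and 34.7 in WT, 19.2, 35.8, 20.9 and 17.8 in Apc and 56.2, 45.5, 53 and 35.1 in P-Rspo3. Pck1 and Pck2 encode the cytosolic and mitochondrial forms of phosphoenolpyruvate carboxykinase, and Pck2 supplied nearly all of the summed FPKM in every group (97.5% ± 0.858, 99.8% ± 0.199 and 97.4% ± 2.09 in WT, Apc and P-Rspo3). Pck1 was low everywhere and lower in each Apc library than in any other (log2 fold change -4.29, SE 0.74, adjusted p = 0.000468; -4.37 against P-Rspo3, adjusted p = 0.00187). Without Apc 2, which held 21 of the Apc counts, these were -5.55 and -5.62. Pck2 overlapped between groups because Apc 2 lay within the WT and P-Rspo3 ranges while the other Apc libraries lay below them (log2 fold change -1.12, SE 0.21, adjusted p = 0.000831; -1.25 against P-Rspo3, adjusted p = 0.00128).

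Hexokinases commit glucose to metabolism by phosphorylating it. Hkdc1 FPKM was 70.3, 79.3, 96.2, 55.2 and 87.1 in WT, 0.785, 1.52, 0.832 and 0.631 in Apc and 71.2, 83.3, 56.9 and 105 in P-Rspo3. Hkdc1, a hexokinase family member also found in epithelia of kidney and gut, was the most abundant hexokinase gene of every WT and P-Rspo3 library and the least abundant of the detected 3 in every Apc library. It fell against WT (log2 fold change -6.68, SE 0.27, adjusted p = 2.34e-08) and against P-Rspo3 (-6.59, adjusted p = 4.33e-07). Hk2, an inducible form common in proliferating cells, had FPKM of 23.4 to 28.7 in Apc, above all libraries of WT (10.1 to 14.1) and P-Rspo3 (4.52 to 14.7). In TMM-scaled counts its rise passed the test but was under 2-fold (log2 fold change 0.74, SE 0.12, adjusted p = 0.00036, and 0.89 against P-Rspo3, adjusted p = 0.0239). Against P-Rspo3 it was past the fold threshold without P-Rspo3 15d (1.09) and missed the adjusted test without Apc 2, Apc 6 or P-Rspo3 4d (adjusted p of 0.0516 to 0.055). Hk1, the constitutive form, spanned 8.53 to 19.6 FPKM in WT, 11.3 to 19.7 in Apc and 4.47 to 15.6 in P-Rspo3, all overlapping, and passed no test.

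The hexokinase pool differed in make-up and in size. Hkdc1 was 73.9% ± 5.0 of the summed hexokinase FPKM in WT, 2.26% ± 0.825 in Apc and 77.9% ± 11.2 in P-Rspo3 (SD). Hk2 was 12.1% ± 3.71, 62.5% ± 3.6 and 10.7% ± 5.52 in the same order, and Hk1 14% ± 4.0, 35.3% ± 4.09 and 11.4% ± 5.92. For all 3 genes the Apc share lay outside the range of every WT and P-Rspo3 library. The summed FPKM was 105 ± 17.8 in WT, 41.7 ± 5.96 in Apc and 100.5 ± 11.8 in P-Rspo3.

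**Figure D2:**
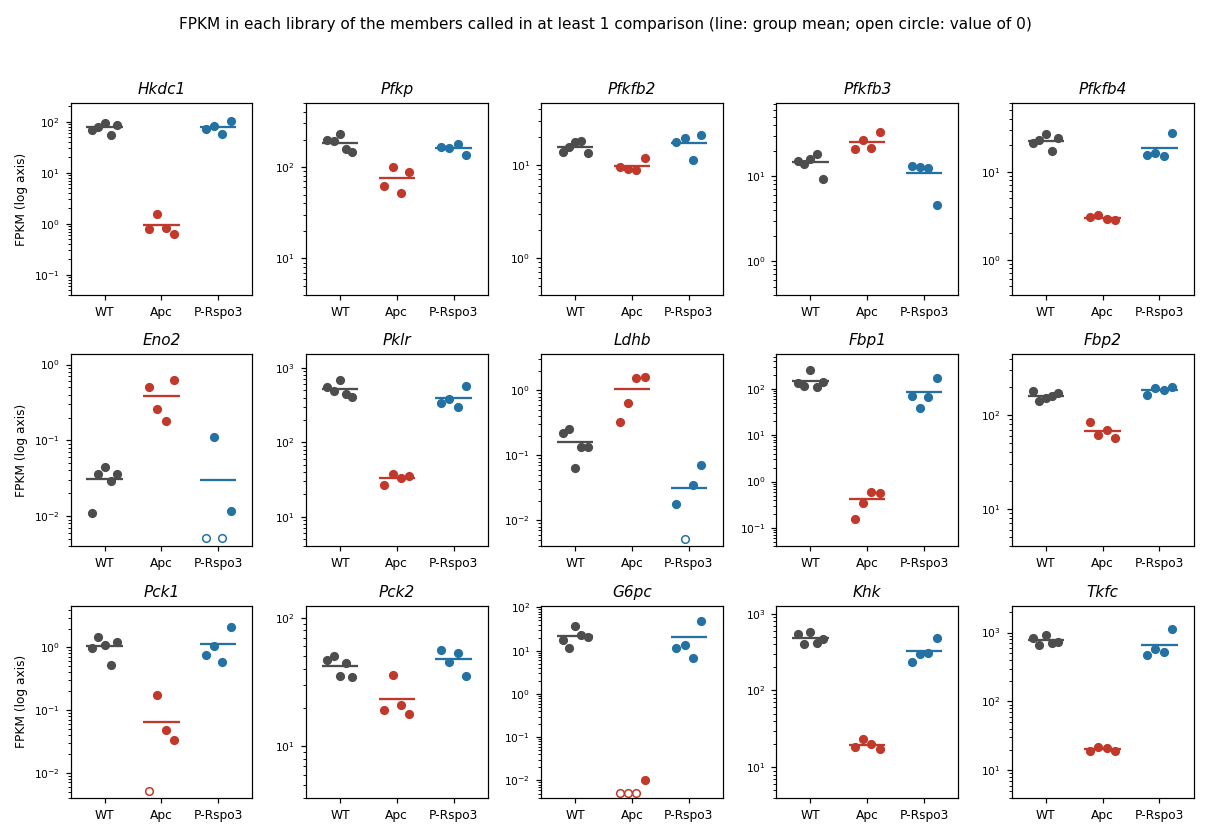
FPKM of the 15 members called in at least 1 comparison, on a log axis, with a point for each library, a line at the group mean and open circles for values of 0. In 12 panels the Apc mean is the lowest, with Khk between 17.4 and 23.0 against 236 or more in all other libraries, and in Pfkfb3, Eno2 and Ldhb it is the highest.

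Pyruvate kinase makes pyruvate at the end of glycolysis. Pklr FPKM was 553, 496, 689.6, 449 and 403 in WT, 26.3, 37.7, 33 and 35.6 in Apc and 339, 384, 301 and 575 in P-Rspo3. Pklr, the liver and red cell form, was lower in each Apc library than in any WT or P-Rspo3 library (log2 fold change -4.34, SE 0.21, adjusted p = 5.79e-08; -3.96 against P-Rspo3, adjusted p = 2.60e-06). Pkm, the form of muscle and proliferating cells, reached 1035 to 1142 FPKM in Apc against 519 to 739.7 in WT and 363 to 607 in P-Rspo3, with no overlap. In TMM-scaled counts Pkm rose by under 2-fold (log2 fold change 0.46, SE 0.11, adjusted p = 0.0034, and 0.90 against P-Rspo3, adjusted p = 0.000271). The Pklr share of the pyruvate kinase FPKM was 44% ± 3.15 in WT, 2.93% ± 0.329 in Apc and 44.4% ± 12.1 in P-Rspo3 (SD), with library ranges of 40.9% to 49.3%, 2.48% to 3.27% and 33.1% to 61.3%. The sum of both genes was 1171 ± 184 FPKM in WT, 1128 ± 50.1 in Apc and 895 ± 34.6 in P-Rspo3. The difference between WT and Apc was smaller than the SD of WT. In CPM, counts scaled to library size without gene length, the sum was 3585 ± 547 in WT, 3985 ± 215 in Apc and 2748 ± 96.6 in P-Rspo3. The Apc mean was thus below that of WT in FPKM and above it in CPM. Neither unit carries the TMM scaling, and whether the total differed between WT and Apc was not tested. Gene totals do not separate the M1 and M2 splice forms of Pkm or the starts of Pklr.

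**Figure D3:**
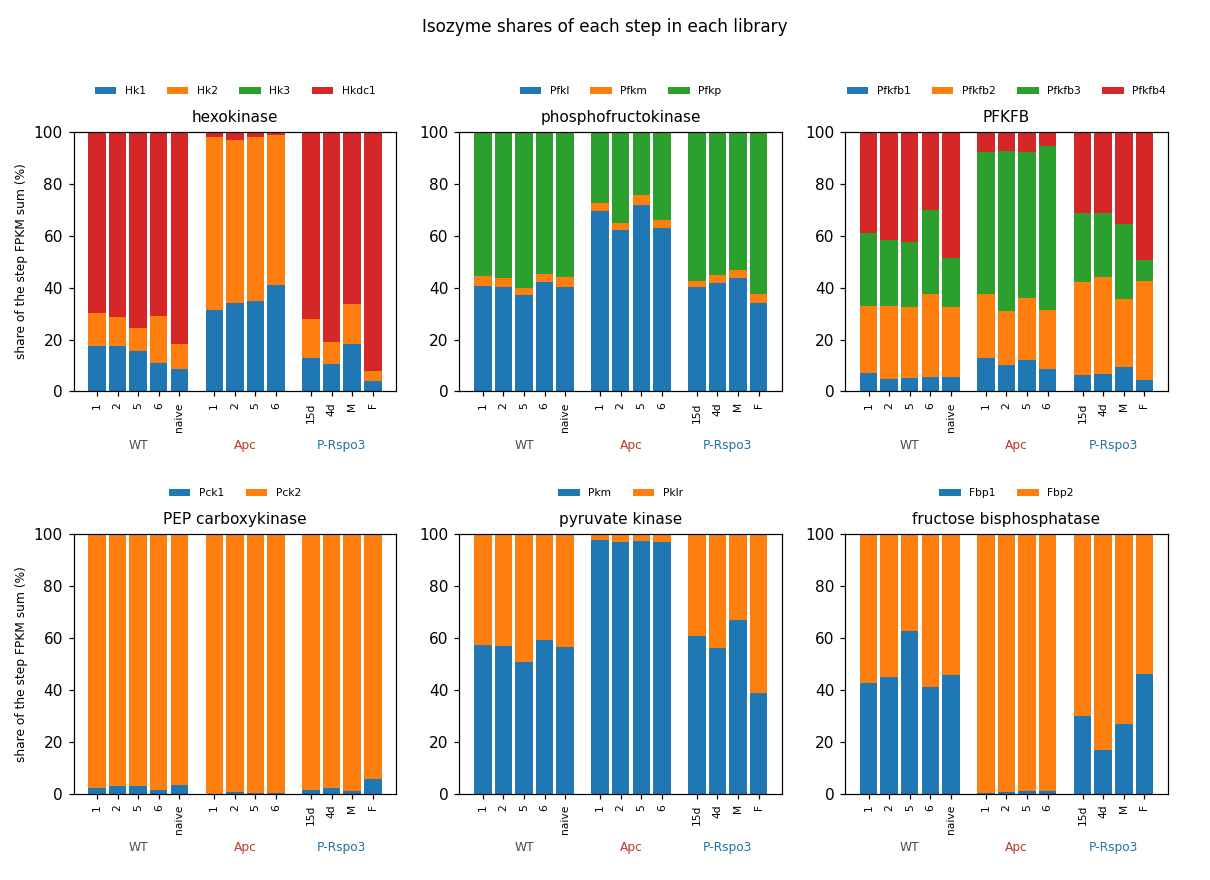
Share of each isozyme in the summed FPKM of its step, in percent, with a bar for each of the 13 libraries. Hkdc1 and Pklr fill 2.26% and 2.93% of their steps on average in Apc, against 73.9% and 44.0% in WT, and P-Rspo3 F has the highest Pklr share of its group.

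Phosphofructokinase is the committed step of glycolysis and its 3 genes encode subunits of a tetramer. Pfkp FPKM was 197, 195, 228, 156 and 146 in WT, 62.3, 100.3, 52.1 and 87.9 in Apc and 164, 160.5, 179.9 and 135 in P-Rspo3. Pfkp, the platelet form, fell in Apc without overlap (log2 fold change -1.49, SE 0.21, adjusted p = 0.00012; -1.24 against P-Rspo3, adjusted p = 0.000424). Pfkl, the liver form, was 153 to 177 FPKM in Apc, above 105 to 144 in WT, but its log2 fold change in TMM-scaled counts did not pass (0.10, adjusted p = 0.421). The Pfkp share was 56.6% ± 2.08 in WT, 30.3% ± 5.14 in Apc and 57.1% ± 3.91 in P-Rspo3, and that of Pfkl 40.0% ± 1.88, 66.7% ± 4.79 and 39.9% ± 4.1. Pfkm, the muscle form, fell by less than 2-fold from 8.69 to 13.6 FPKM in WT to 6.67 to 7.74 in Apc (log2 fold change -0.84, SE 0.12, adjusted p = 0.000131) and stayed under 4% of the step. Gpi1, which interconverts glucose and fructose 6-phosphates, fell against WT by less than 2-fold (591 to 1020.4 FPKM in WT and 461 to 580.1 in Apc, log2 fold change -0.93, SE 0.16, adjusted p = 0.000505), and was past the fold threshold at -1.01 without WT naive. In P-Rspo3 Gpi1 was 468 to 568 FPKM, within the Apc range. Apc against P-Rspo3 gave -0.28 on the log2 scale (adjusted p = 0.0183), a pass lost in 5 of 17 alternatives.

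The PFKFB enzymes make and remove fructose 2,6-bisphosphate, the activator of phosphofructokinase, each with its own balance of kinase and phosphatase activity. Pfkfb4 FPKM was 21, 22.9, 27.1, 17.1 and 24.3 in WT, 3.04, 3.22, 2.9 and 2.84 in Apc and 15.5, 16.4, 15.2 and 27.3 in P-Rspo3. Pfkfb4 was lower in every Apc library than in any other (log2 fold change -3.19, SE 0.15, adjusted p = 5.97e-08; -2.90 against P-Rspo3, adjusted p = 7.51e-06). Pfkfb3 FPKM was 15.1, 14, 16, 18.1 and 9.32 in WT, 21, 26.3, 21.2 and 32.9 in Apc and 13.1, 12.9, 12.5 and 4.55 in P-Rspo3. Pfkfb3, the form with the strongest kinase bias, lay higher in all 4 Apc libraries than in any other, was called higher against P-Rspo3 (log2 fold change 1.06, SE 0.30, adjusted p = 0.0128) and rose by under 2-fold against WT (log2 fold change 0.53, SE 0.18, adjusted p = 0.0225). The call against P-Rspo3 was lost without Apc 6 (0.95) and without P-Rspo3 F (0.80), the library with the lowest Pfkfb3. It was also lost with NAIVE_F placed in P-Rspo3 by its genotype label (0.93). The rise against WT missed the adjusted test without Apc 2, Apc 6 or WT 2 and in a fit of all 3 groups, with an adjusted p of 0.0505 to 0.0863.

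Pfkfb2 FPKM was 13.8, 15.6, 17.6, 17.9 and 13.5 in WT, 9.52, 9.03, 8.88 and 11.7 in Apc and 17.8, 19.7, 11.2 and 21 in P-Rspo3. Pfkfb2, the heart form, was lower in Apc than in WT without overlap, but P-Rspo3 M fell among the Apc libraries. Its log2 fold changes, -1.01 (SE 0.13) against WT and -1.09 (SE 0.18) against P-Rspo3, sat at the threshold of 1. The call against WT was lost without Apc 2 (-0.98), without Apc 5 (-0.94) and without WT 5 (-0.93), and that against P-Rspo3 without P-Rspo3 F (-0.97), with adjusted p under 0.05 each time. A fit of all 3 groups (-0.992) and NAIVE_F placed in WT by its title (-0.996) also lost the call against WT. Pfkfb1 was 4.31 to 4.92 FPKM in Apc against 2.55 to 3.89 in WT and passed no test in TMM-scaled counts. Pfkfb3 took 25.9% ± 4.95 of the PFKFB sum in WT, 58.9% ± 4.11 in Apc and 22.1% ± 9.43 in P-Rspo3, and Pfkfb4 40.4% ± 6.67, 7.14% ± 1.13 and 36.9% ± 8.54. Both shares in Apc lay outside the WT and P-Rspo3 ranges.

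Aldolase splits the hexose bisphosphate and Tpi1 interconverts the trioses. Aldoa, the general form, held 1013 to 1450.4 FPKM in WT, 1078 to 1387 in Apc and 703 to 1250.2 in P-Rspo3, with all groups overlapping and no test passed. Aldoc, the brain form, also overlapped, at 38.6 to 85.4, 56.8 to 102 and 25.8 to 56.9 FPKM, and was higher in Apc than in P-Rspo3 by less than 2-fold (log2 fold change 0.79, SE 0.24, adjusted p = 0.0197), a pass lost in 3 of 17 alternatives, without Apc 6 and without P-Rspo3 4d among them. Tpi1 overlapped at 601 to 747, 588 to 709 and 429 to 702 FPKM, and its small fall in TMM-scaled counts against WT (log2 fold change -0.29, SE 0.10, adjusted p = 0.0329) had the opposite sign, 0.01, on the log2 FPKM scales and missed the test in 9 of 21 alternatives. Of the summed FPKM of these 2 aldolase members, Aldoa was 95.3% ± 0.675 in WT, 94% ± 0.849 in Apc and 96.1% ± 0.478 in P-Rspo3.

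The lower trunk, from Gapdh to enolase, held 6 members. Gapdh, the redox step, fell by less than 2-fold in Apc against WT (1256 to 1883 FPKM in WT, 1035 to 1279.5 in Apc, log2 fold change -0.75, SE 0.15, adjusted p = 0.00119). In P-Rspo3 Gapdh was 1119 to 1531 FPKM, overlapping both. Apc against P-Rspo3 gave -0.35 on the log2 scale (adjusted p = 0.0361), a pass lost in 8 of 17 alternatives. Pgk1 and Pgam1, the kinase and mutase that follow, passed no adjusted test, at 253 to 334 and 53.8 to 64.2 FPKM in WT and 279 to 402 and 56.4 to 68.8 in Apc. Eno3, the muscle enolase, rose by less than 2-fold against WT without overlap (10.2 to 15.2 against 4.68 to 7.42 FPKM, log2 fold change 0.72, SE 0.19, adjusted p = 0.00672), while its P-Rspo3 range of 6.34 to 11.4 reached the Apc range. Eno2 FPKM was 0.0109, 0.0359, 0.0441, 0.0287 and 0.0364 in WT, 0.499, 0.262, 0.178 and 0.617 in Apc and 0, 0.11, 0 and 0.0115 in P-Rspo3. Eno2, the neuronal enolase, was called higher in Apc, with 8 to 55 counts against 1 to 3 in WT and 0 to 5 in P-Rspo3. It was at least 6.22-fold higher than WT (adjusted p = 0.00124) against the floor of 3 counts, and against P-Rspo3 the log2 fold change 3.37, SE 0.84, adjusted p = 0.00692. The latter was 4.64 without P-Rspo3 4d, which held 5 counts, and 2.73 without Apc 6. At no more than 0.617 FPKM, Eno2 was 0.0482% or less of the enolase sum in any library.

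Eno1, the general enolase, made up at least 98.2% of the enolase FPKM in every library, and its level split the libraries along another line than the groups. Eno1 FPKM was 1554, 1536, 1615, 1200.3 and 631 in WT, 1227, 1238, 1207 and 1264 in Apc and 618, 568, 729 and 599 in P-Rspo3. WT naive and all P-Rspo3 libraries lay low, and the WT flox and Apc libraries all lay above them. Eno1b is a near copy of Eno1 elsewhere in the genome, and its counts were 2564 in WT naive and 2186 to 2762 in P-Rspo3 against 112 to 168 in the WT flox and Apc libraries. In counts Eno1 was 35156 in WT naive, 31978 to 39239 in P-Rspo3, 49432 to 59867 in WT flox and 47599 to 55067 in Apc, a smaller gap than in FPKM. Among the grouped libraries this split follows the mouse line, the inducible line against the flox lines, although the labels give 1 strain for all. The ungrouped libraries do not follow it by label. NAIVE_F, labelled Ptprk-Rspo3, and LIPO, labelled Dox naive, had 74 and 127 counts of Eno1b, near the flox libraries. Eno1 values are uncertain because the copies can share reads, and the part of the copy and of the line in them was not tested. In TMM-scaled counts Eno1 was lower in Apc than in WT by less than 2-fold (log2 fold change -0.43, SE 0.15, adjusted p = 0.033), and it missed the test in 9 of 21 alternatives, among them each Apc library left out in turn and WT 1, WT 2 or WT 5 left out.

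**Figure D4:**
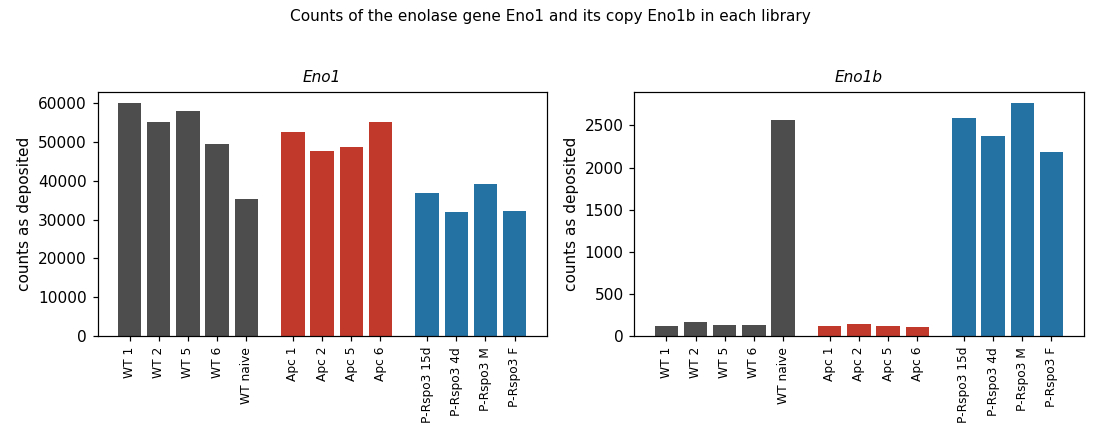
Deposited counts of Eno1 (left) and of its copy Eno1b (right) in each of the 13 grouped libraries, on linear axes from 0. WT naive and the 4 P-Rspo3 libraries have 2186 to 2762 counts of Eno1b and at most 39239 of Eno1, and the other 8 libraries have at most 168 of Eno1b.

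Lactate dehydrogenase and the monocarboxylate transporters handle the end product. Ldha, the form that favours lactate production, fell in Apc against WT by less than 2-fold from 1618 to 2148 to 1254 to 1534 FPKM (log2 fold change -0.72, SE 0.12, adjusted p = 0.000426) and was 99.9% ± 0.0469 of the lactate dehydrogenase sum in Apc, with higher shares in the other groups. In P-Rspo3 Ldha was 1259 to 1723 FPKM, overlapping both. Apc against P-Rspo3 gave -0.33 on the log2 scale (adjusted p = 0.0328), a pass lost in 7 of 17 alternatives. Ldhb FPKM was 0.219, 0.25, 0.0637, 0.134 and 0.136 in WT, 0.329, 0.639, 1.56 and 1.61 in Apc and 0.018, 0, 0.0347 and 0.0713 in P-Rspo3. Ldhb, the heart form, lay higher in all 4 Apc libraries than in any other and was called higher, at 19 to 91 counts against 3 to 12 in WT and 0 to 2 in P-Rspo3 (log2 fold change 2.52, SE 0.51, adjusted p = 0.0015), and was at least 14.4-fold higher than P-Rspo3 against the floor of 3 counts (adjusted p = 0.000371). Slc16a1 and Slc16a3, the lactate transporters MCT1 and MCT4, passed no test against WT. Slc16a1 spanned 39.2 to 46.1 FPKM in WT and 51.6 to 60.9 in Apc, and Slc16a3 92.1 to 191 and 78 to 170.2. Against P-Rspo3 both were higher in Apc by less than 2-fold (0.24 and 0.71 on the log2 scale, adjusted p = 0.0308 and 0.04998). Each missed the test in 7 of 17 alternatives, among them without Apc 2, P-Rspo3 15d, P-Rspo3 4d or P-Rspo3 F for both. The highest adjusted p, 0.108 for Slc16a1 and 0.144 for Slc16a3, came with NAIVE_F placed in P-Rspo3 by its genotype label.

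In P-Rspo3 against WT no member of the 32 tested, which left out Hk3 and Eno2 as too low, was called in either direction, against 0.00625% of 15992 genes called higher and 0.0% called lower, and edgeR gave no member an adjusted p under 0.05. At unadjusted p < 0.05 there were 11 members by edgeR, 12 by DESeq2 and 10 by limma on log2(FPKM + 1), against 13.5%, 13.9% and 12.0% of all genes, and DESeq2 and limma called none past both thresholds. All 11 edgeR members were lower in P-Rspo3, while 7.03% of all genes were lower at that level: Gpi1 (-0.63), Slc16a3 (-0.95), Eno1 (-0.57), Ldhb (-2.74, with at most 2 counts in P-Rspo3), Pkm (-0.43), Aldoc (-0.73), Ldha (-0.37), Pfkm (-0.37), Gapdh (-0.39), Slc16a1 (-0.17) and Khk (-0.53), as log2 fold changes of counts. Of all 32, 27 had a log2 fold change below 0 and the median was -0.26, also with bounds, against 0.0041 over all genes. Gpi1 was the sole member whose FPKM did not overlap, 468 to 568 against 591 to 1020.4, against 4.13% of all genes. Without WT naive, Gpi1 (-0.71, adjusted p = 0.0416) and Eno1 (-0.68, adjusted p = 0.0288) passed the adjusted test but not the fold threshold, and over all genes the calls went from 1 to 166 higher and 100 lower. That fit kept the flox libraries of WT only, so mouse line differed along with medium and genotype. Hkdc1, at 55.2 to 96.2 FPKM in WT and 56.9 to 105 in P-Rspo3, and Fbp2, at 141 to 182 and 164 to 201, illustrate the overlap.

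Within P-Rspo3, library F lay farthest from the others in several members. It had the lowest FPKM of its group in 17 of the 32 members and the highest in 11, while library M had the highest in 17 and the lowest in 7. Hk1, Hk2 and Pfkfb3 were at 4.47, 4.52 and 4.55 FPKM, 0.342, 0.368 and 0.354 times the mean of the other 3 libraries, and Pkm was at 363 FPKM. G6pc, Fbp1, Pck1 and Tkfc were 4.65, 2.92, 2.62 and 2.12 times the others' mean. The genes that were high in F thus included those near 0 in Apc. F also had the highest enterocyte marker sum of its group (5472 against 2442 to 4107) and the lowest proliferation and goblet cell marker sums (240.3 against 285 to 328, and 1362 against 2551 to 3096), whose part in this was not tested. In P-Rspo3 against WT no member was called with or without F, so there was no call to lose. Leaving F out lost the calls of Pfkfb3 and Pfkfb2 in Apc against P-Rspo3.

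**Figure D5:**
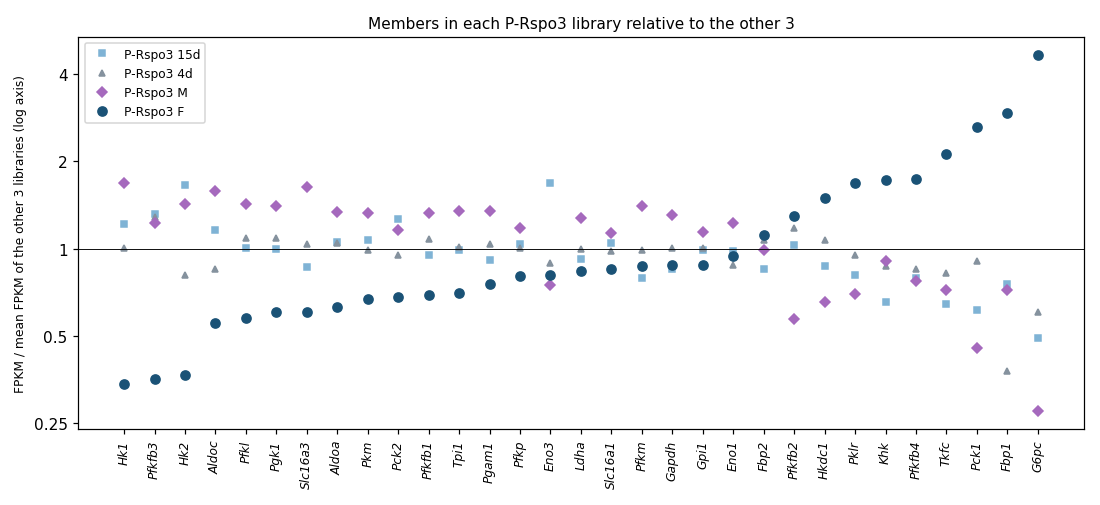
FPKM of each member in each P-Rspo3 library divided by the mean of the other 3, on a log axis, with members ordered by library F and Ldhb left out because P-Rspo3 4d is listed at 0. F runs from 0.342 for Hk1 to 4.65 for G6pc, a wider span than the other libraries.

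Around the members, 49 other pathway genes in 5 lists were counted. They are read against the 14.1% lower and 12.2% higher of all genes in Apc against WT. Of the 4 hexose transporters, 3 were called lower in Apc against WT: Slc2a2 (-9.91), the bidirectional glucose and fructose carrier GLUT2, Slc2a5 (-7.23), the fructose carrier GLUT5, and Slc5a1 (-5.14), the sodium-coupled glucose carrier SGLT1, all as log2 fold changes, while Slc2a1 (GLUT1) was not called. Of 13 other enzymes tested, 4 were called lower, among them Gpd1 (-4.63), the cytosolic glycerol-3-phosphate dehydrogenase. Pyruvate entry had 2 of 12 lower and 1 higher. Pdk4, an inhibitory kinase of pyruvate dehydrogenase, rose by 3.88 on the log2 scale (2.70 without Apc 6), and the related Pdk2 fell by 2.41. Of 10 transcription regulators 5 were called lower, including Mlxipl (-2.70), which encodes ChREBP, the factor known to bind the carbohydrate response element of the Pklr promoter, and Onecut2 (-2.56). In the pentose phosphate pathway 3 of 7 genes were lower at adjusted p alone, against 29.0% of all genes, and its log2 fold changes ran from -0.81 to 0.23, short of the fold threshold. In P-Rspo3 against WT the smallest adjusted p in these lists was 0.271.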

How the data were processed

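The strand setting of the counting is not given in the sources used here. Per the labels and the study's methods, the authors ran STAR in 2-pass mode on GRCm38, made counts per gene with HTSeq 0.6.0 and deposited them unnormalised, and estimated FPKM with Cufflinks 2.2.1, which the authors deposited as a separate table. The annotation release is not given in the sources used here. GENCODE M21 supplied symbols and coordinates, and promoters came from RefSeq on GRCm38.p6. The members and lists were chosen with earlier results of these data known.

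Counts were tested with edgeR 4.0.16 (R 4.3.3) by TMM scaling and the quasi-likelihood test, in separate fits of 2 groups without covariates, on genes whose FPKM reached 0.1 in a number of libraries no lower than the size of the smaller group. P-values were adjusted by Benjamini-Hochberg over all genes tested, and a gene was called at adjusted p < 0.05 and an absolute log2 fold change above 1. Standard errors are the log2 fold change divided by the square root of the F statistic. The fit was tested on simulated counts first. Isozyme shares are percentages of the FPKM summed over a step, described without a test. Alternatives used DESeq2 1.42.0, limma 3.58.1 on log2(FPKM + 1) and log2(FPKM + 0.1), other scalings, filters and fits, a replicate block, and each library left out. Library values are given for members called in any comparison and ranges for the others. Other pathway genes have values where called in Apc against WT with an absolute log2 fold change above 2. Intervals and floors of 3 counts cover counting error only. NAIVE_F, whose title and genotype label conflict, and LIPO, whose title names no group, entered no main comparison. Some alternatives placed them by genotype label, LIPO in WT and NAIVE_F in P-Rspo3. Others placed NAIVE_F in WT by its title. A gene of the wider pathway and the isozyme alternative that used it are not reported here.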

Additional observations from a re-analysis of the deposited data

Results flagged for a closer look

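In groups of 4 or 5 libraries, a library whose gap to its nearest neighbour exceeded Dixon's 95% critical value was noted, which chance gives in about 1 in 20 groups (0.05), and 7 of 96 group and gene pairs met this. P-Rspo3 F accounted for 4 of them: Pfkfb3 at 4.55 FPKM against 12.5 to 13.1 in the other P-Rspo3 libraries, Pfkfb4 at 27.3 against 15.2 to 16.4, G6pc at 49.2 against 6.80 to 13.5 and Tkfc at 1107 against 472 to 575. Eno2 was at 0.110 FPKM in P-Rspo3 4d against 0 to 0.0115 in the others, a level of at most 5 counts. Fbp1 was at 252 FPKM in WT 5 against 113 to 143 in the other WT libraries. Pck2 was at 35.8 FPKM in Apc 2 against 17.8 to 20.9 in the other Apc libraries. Outside the compared libraries, Rspo3 had 729 counts in NAIVE_F, a library with conflicting labels, against 0 to 1 in WT.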

How the results depend on the processing

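Counts of members called lower stayed within 1.5 times their value under every alternative run (12 in Apc against WT, 9 to 18 across them, and 12 against P-Rspo3, 10 to 16). The number called higher in Apc against WT was 2, and became 1 under edgeR's own expression filter, which left Eno2 untested, 1 with limma on log2(FPKM + 1), where Eno2 (0.42) and Ldhb (0.75) were lost and Hk2 (1.04) gained, and 6 at adjusted p alone. Against P-Rspo3 it was 3, and became 8 at adjusted p alone and 5 with limma on log2(FPKM + 0.1). With limma on log2(FPKM + 1) it stayed at 3, but Eno2 and Ldhb were lost and Hk2 and Pkm gained. Among members called lower, limma on log2(FPKM + 1) lost Pck1 (-0.93), Pck2 (-0.87) and Pfkfb2 against WT, and Pck1 and Pfkfb2 against P-Rspo3, and limma on log2(FPKM + 0.1) lost Pck2 (-0.90) and Pfkfb2 against WT, and Pfkfb2 against P-Rspo3. On those FPKM scales the median of all genes moved to 0.17 and 0.28 in Apc against WT, and Tpi1 changed sign there (0.0125 and 0.0126, adjusted p of 0.92 or more), below that median. Isozyme shares moved when CPM replaced FPKM, which ignores gene length: Pfkp to 48.8%, 24.7% and 49.6% in WT, Apc and P-Rspo3, Pfkfb3 to 35.3% in WT and 76.6% in Apc, Pfkfb4 to 46.3% in P-Rspo3, and Pklr to 34.9% in WT and 1.91% in Apc. With the replicate block, in which Apc and WT libraries of the same number were paired, 2 members were called higher and 12 lower. The numbers are not said to mark shared origin, and deviations of same-numbered libraries correlated at 0.200, 0.104, 0.0826 and 0.0221, so pairing was not used, and not every library correlated best with its own number. The block leaves out WT naive, and without WT naive and with no block 13 were called lower, Gpi1 (-1.01) being the added gene, so the block lost that call, and the adjusted p of Tpi1 was no longer under 0.05. In P-Rspo3 against WT no alternative called a member, and members at unadjusted p < 0.05 ranged from 6 (without WT 1) to 14 (without P-Rspo3 M), and DESeq2 gave Gpi1, Eno1 and Slc16a3 adjusted p of 0.00815, 0.0195 and 0.0084. Genes at few counts, such as Eno2, Ldhb and Hk3, are limited by depth.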

Other observations

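The 2 libraries that entered no main comparison are given as single values. LIPO, whose title names no group and whose genotype label is Dox naive, had FPKM of 86.9 for Hkdc1, 474 for Khk, 687 for Tkfc, 469.9 for Pklr, 116 for Fbp1 and 17.5 for G6pc. NAIVE_F, titled as naive and labelled Ptprk-Rspo3 in EN medium, had 63.5, 449.8, 717 and 439.7 FPKM for Hkdc1, Khk, Tkfc and Pklr, and 82.8 and 22.4 for Fbp1 and G6pc. All of these lay above the highest Apc library. Eno1b had 127 counts in LIPO and 74 in NAIVE_F, near the 112 to 168 of the WT flox and Apc libraries and far below the 2564 of WT naive, although the label of LIPO is that of WT naive. Eno1 was at 1306 FPKM in LIPO and 1330.3 in NAIVE_F, against 631 in WT naive and 568 to 729 in P-Rspo3.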
